A study of Danio rerio with 28 samples.

Results

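The comparison described here sets RNA of the same stage against itself, prepared in 2 ways. Whole zebrafish embryos (Danio rerio, AB strain) at 4 h post-fertilization (hpf), wild type and with no treatment stated, were sequenced as 2 poly(A)-selected and as 2 rRNA-depleted libraries. These 4 libraries were chosen by their titles and are 4 of the 28 in the series. For the poly(A) libraries, total RNA was bound to oligo(dT) beads (Dynabeads), treated with DNase and built into libraries with the KAPA Stranded mRNA-Seq kit. For the rRNA-depleted libraries, ribosomal RNA was removed with Ribo-Zero and libraries were built with the NEBNext Ultra kit. A second pair of groups, at 2 hpf, is used further down. They are wild-type poly(A) libraries and rRNA-depleted libraries of embryos given the RNA polymerase II inhibitor alpha-amanitin (0.2 ng) at the one-cell stage, 2 libraries each. The other poly(A) libraries of the series came from untreated and morpholino-injected embryos at 0 to 6 hpf. The other rRNA-depleted libraries came from embryos given amanitin (0.2 ng), at 4 and 6 hpf. All these enter the shared estimate of spread and the ranges across library kinds. The poly(A) libraries at 0 hpf also serve to class genes. Every rRNA-depleted library other than those of wild type at 4 hpf thus came from embryos given amanitin.

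Most messenger RNAs end in a poly(A) tail. Selection with oligo(dT) keeps a transcript only if its tail is present and long enough to bind, whereas rRNA depletion keeps RNA with or without a tail. Replication-dependent histone mRNAs end in a stem-loop in place of a tail, and RNA polymerase III products such as the signal recognition particle RNA have no poly(A) tail. In the early zebrafish embryo the tail also carries information on translation. Maternal mRNAs are stored with short tails, which are lengthened or trimmed in the cytoplasm. At about the stage studied here transcription of the embryo's own genome has begun. The comparison therefore asks which RNAs of the 4 hpf embryo are well or poorly captured through a tail. Library kit, RNA preparation and embryo batch differ together between the groups, so that their parts cannot be told apart. In whole-embryo RNA, fewer cells of a type and less RNA per cell cannot be told apart either.

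The poly(A) libraries held 71349193 and 86405508 reads assigned to genes, and the rRNA-depleted libraries 53119167 and 39882963. Levels are given as CPM (read counts scaled to a common library total) with TMM factors, which set the typical mRNA equal between libraries. A value therefore says how a gene stood relative to the typical mRNA, not how much of it an embryo held. The poly(A) pair stood further apart than other pairs of the series: 1788 of 14620 genes at or above 1 CPM (12.2%) differed at least 2-fold between its 2 libraries, against 12 of 14704 (0.0816%) in the rRNA-depleted pair and 8 to 559 genes in the other pairs. The labels do not say that these replicates came from separate embryo batches, so p-values measure only a spread between libraries. This spread was estimated with all 28 libraries of the series, in which the other pairs lay closer together. It can therefore understate the spread of the poly(A) pair, and a fit of the 4 libraries alone called fewer genes. A single gene without a symbol took 32.4% and 33.4% of the counts in the poly(A) libraries, against 0.236% to 0.520% over the 8 rRNA-depleted libraries of the series. Genes without a symbol together took 42.0% and 42.7% in the poly(A) libraries, against 24.4% and 24.97% in the rRNA-depleted ones. That single gene made up most of this share in the poly(A) libraries. The other genes without a symbol took a smaller share there than in the rRNA-depleted libraries.

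Of 23444 genes tested, 2039 (8.7%) were higher and 2117 (9.03%) were lower in the poly(A) libraries, at least 2-fold and at an adjusted p under 0.05. The test was edgeR's quasi-likelihood F-test, with p-values adjusted by Benjamini-Hochberg over all genes tested. Together 17.7% of genes were called in either direction, and this share is the background for the counts that follow. The deficits ran deeper than the gains. Among called genes, 344 were at least 64-fold lower in the poly(A) libraries and 19 were at least 64-fold higher. At the 16-fold mark the counts were 587 lower and 83 higher. These sizes are fitted values, which are no bounds for genes with almost no counts in a group. Of the 344 genes with the deepest deficits 62 carried a symbol and 282 did not. A fit of the 4 libraries alone called 2322 genes. Scaling to total counts in place of TMM moved the median of all genes to -0.52 on the log2 scale, and then 957 genes were called higher and 4596 lower. The directions below are relative to the typical gene.

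**Figure D1:**
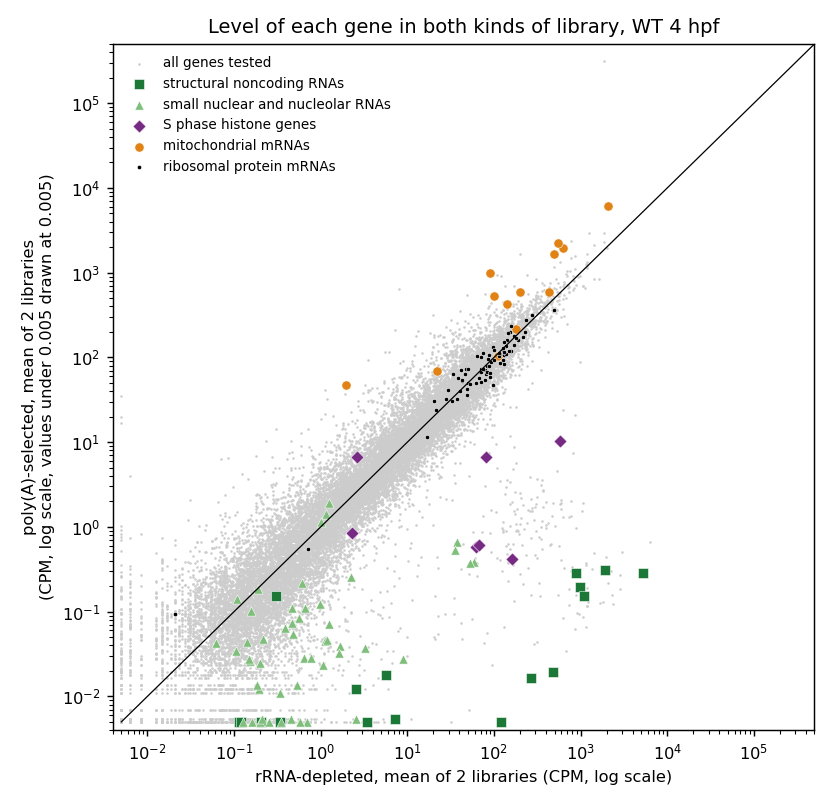
Mean level of every tested gene at 4 hpf in the poly(A) libraries (y axis, CPM, log scale) against the rRNA-depleted libraries (x axis, CPM, log scale), 2 libraries each, with gene groups coloured and the line of equal levels drawn. Small structural RNAs and replication histones lie far below the line and mitochondrial mRNAs above it, while most genes follow the line.

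The small structural RNAs showed the deepest deficits. Of 23 entries 17 passed the filter on low counts. Of these 16 were called lower in the poly(A) libraries and none higher, with a median log2 fold change of -10.91, against 0.003 over all genes. In the poly(A) pair 11 of the 17 had no more than 3 counts. They could thus pass the filter through the rRNA-depleted libraries, so the direction of their calls is partly set by it. With RNAs at or under 3 counts in the poly(A) pair set to the bound that the counts allow, the median was -8.64. The gene rn7sl1, the RNA of the signal recognition particle, had 0.260 and 0.318 CPM in the poly(A) libraries, against 4933 and 5541 CPM in the rRNA-depleted libraries, where it alone took 0.741% and 0.834% of the counts. Its log2 fold change was -14.13 ± 1.01 (SE, edgeR adjusted p = 3.36e-08). The RNA of ribonuclease P, which trims tRNA precursors, behaved alike at the rpph1 gene, with 0.301 and 0.274 CPM in the poly(A) libraries, against 838 and 921 CPM in the rRNA-depleted libraries (log2 fold change -11.58 ± 0.37, SE; edgeR adjusted p = 1.26e-13). The groups lay far apart for both genes. The 7SK RNA (rn7sk), which holds the elongation factor P-TEFb inactive, had 0.287 and 0.0986 CPM in the poly(A) libraries, against 919 and 1031 CPM in the rRNA-depleted libraries (log2 fold change -12.35). The RNA of ribonuclease MRP (rmrp) was counted at 0 and 0.0329 CPM in the poly(A) libraries, against 230 and 312 CPM in the rRNA-depleted libraries. One Metazoa_SRP copy had no count in either poly(A) library, against 110 and 129 CPM in the rRNA-depleted libraries, which makes it at least 6557-fold lower (against a floor of 3 counts over the pair). The exception was Vault, the RNA of the vault particle, with 0.178 and 0.131 CPM in the poly(A) libraries, against 0.288 and 0.317 CPM in the rRNA-depleted libraries, which was not called (log2 fold change -0.97). The Metazoa_SRP and RNaseP_nuc entries are near-identical copies among which reads may be split, so single copies are uncertain. The list summed to 0.000160% and 0.000146% of the counts in the poly(A) libraries, against 1.57% and 1.74% in the rRNA-depleted libraries.

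The other small RNA classes went the same way with smaller deficits and lower counts. Of 52 small nucleolar RNAs, the guides of rRNA modification, 31 passed the filter. Of these 18 were called lower and none higher (median log2 fold change -3.01). SNORA23 had 0.0547 and 0 CPM in the poly(A) libraries, against 8.60 and 9.32 CPM in the rRNA-depleted libraries. The most abundant SNORA73 copy had 0.575 and 0.197 CPM in the poly(A) libraries, against 52.3 and 66.3 CPM in the rRNA-depleted libraries (log2 fold change -7.30 ± 0.39, SE; edgeR adjusted p = 4.04e-11). Some members lie inside host genes, and snord22 was not called, with 3.01 and 0.832 CPM in the poly(A) libraries, against 1.32 and 1.1999 CPM in the rRNA-depleted libraries. Spliceosomal small nuclear RNAs passed the filter on low counts in 19 of 50 copies, of which 15 were called lower and none higher. All copies summed to 994 and 813 counts in the rRNA-depleted wild-type libraries, and to 7 to 133 in every other library of the series. Copies could thus pass the filter largely through the group in which they are high, so the direction of their calls is partly set by it. Of the 19, 10 had no more than 3 counts over a pair, and the median of -4.76 became -3.80 with those at their bound. The most abundant U2 copy called had 0.0410 and 0.0329 CPM in the poly(A) libraries, against 2.66 and 3.75 CPM in the rRNA-depleted libraries. U6, with 0.123 and 0.252 CPM in the poly(A) libraries, against 0.176 and 0.200 CPM in the rRNA-depleted libraries, was not called (log2 fold change 0.02). Of 220 microRNA loci 10 passed the filter, of which 5 were called lower and none higher, all at low levels. The list summed to 373 and 319 counts in the rRNA-depleted wild-type libraries, against 124 and 104 in the poly(A) ones. As for the small nuclear RNAs, the direction of microRNA calls is thus partly set by the filter. The same could hold for the small nucleolar RNAs. MIR17 had 0.0274 and 0.0438 CPM in the poly(A) libraries, against 0.439 and 0.483 CPM in the rRNA-depleted libraries. Of the 25 rRNA entries that passed the filter, out of 502, 6 were called lower and none higher, and this class was the target of the depletion itself. In the rRNA-depleted amanitin libraries at 4 hpf, small nuclear RNAs took 0.000169% of counts. This compares with 0.00195% in rRNA-depleted and 8.18e-05% in poly(A) wild type. MicroRNA loci took 6.16e-05%, against 0.000751% and 0.000147%, and rRNA entries 0.00105%, against 0.149% and 0.00944%. The deficits of these lists thus hold against the wild-type rRNA-depleted pair, and their cause was not tested.

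Replication-dependent histones were the mRNAs with the largest deficits in a list: 6 of 7 tested were called lower in the poly(A) libraries and 1 higher, with a median log2 fold change of -5.84. The H2A gene hist1h2a11 had 0.424 and 0.416 CPM in the poly(A) libraries, against 147 and 178 CPM in the rRNA-depleted libraries (log2 fold change -8.59 ± 0.65, SE; edgeR adjusted p = 3.85e-08). The reference table also lists this gene under an H2AX synonym. Both other H2A members, hist1h2a3 and hist1h2a4, had 0.547 to 0.668 CPM in the poly(A) libraries, against 58.5 to 74.8 CPM in the rRNA-depleted libraries. The H3 gene hist2h3c retained more signal, with 14.1 and 6.36 CPM in the poly(A) libraries, against 576 and 589 CPM in the rRNA-depleted libraries (log2 fold change -5.84). More remained of h3c13a, with 5.58 and 7.69 CPM against 84.4 and 76.9 CPM (log2 fold change -3.60). In none of these 5 genes did the groups overlap, as was so for 62.8% of all genes tested. H2BK1 had 1.04 and 0.668 CPM in the poly(A) libraries, against 2.17 and 2.47 CPM in the rRNA-depleted libraries, and its call was lost in the fit of the 4 libraries alone (adjusted p = 0.0729). The member that went the other way was hist2h2l, with 6.89 and 6.63 CPM in the poly(A) libraries, against 2.66 and 2.65 CPM in the rRNA-depleted libraries (log2 fold change 1.35, and 0.82, no longer called, with total-count scaling). The list took 0.00298% and 0.00243% of the counts in the poly(A) libraries, against 0.140% and 0.149% in the rRNA-depleted libraries.

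Histone variants, which are made outside replication and in general from polyadenylated mRNA, divided: 4 of 11 were called higher and 2 lower (median log2 fold change 0.15), and 2 each way with total-count scaling. The 2 lower ones included h2ax, the variant phosphorylated at DNA breaks, whose mammalian gene makes both a stem-loop and a polyadenylated mRNA. It had 29.4 and 12.8 CPM in the poly(A) libraries, against 842 and 899 CPM in the rRNA-depleted libraries (log2 fold change -5.37 ± 0.29, SE; edgeR adjusted p = 9.70e-11). Its paralogue h2ax2, which was outside the list, had 1.01 and 1.40 CPM in the poly(A) libraries, against 291 and 294 CPM in the rRNA-depleted libraries. The second lower member was slbp2, which was placed in the list because its product binds the histone stem-loop in oocytes. It had 33.9 and 72.6 CPM in the poly(A) libraries, against 115 and 123 CPM in the rRNA-depleted libraries, and a log2 fold change of -1.16 that shrank to -0.77 without poly(A) replicate 1. By contrast h3f3d, an H3.3 gene, had 412 and 349 CPM in the poly(A) libraries, against 85.0 and 85.5 CPM in the rRNA-depleted libraries (log2 fold change 2.16 ± 0.10, SE; edgeR adjusted p = 9.32e-13). The calls of h3f3b.1 (log2 fold change 1.06), MACROH2A2 (2.48) and H1-10 (1.40) were all lost without poly(A) replicate 1, where the values were 0.59, 1.62 and 0.51. MACROH2A2 also lost its call without rRNA-depleted replicate 1 (2.39) or 2 (2.62), and H1-10 without rRNA-depleted replicate 2 (1.05).

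**Figure D2:**
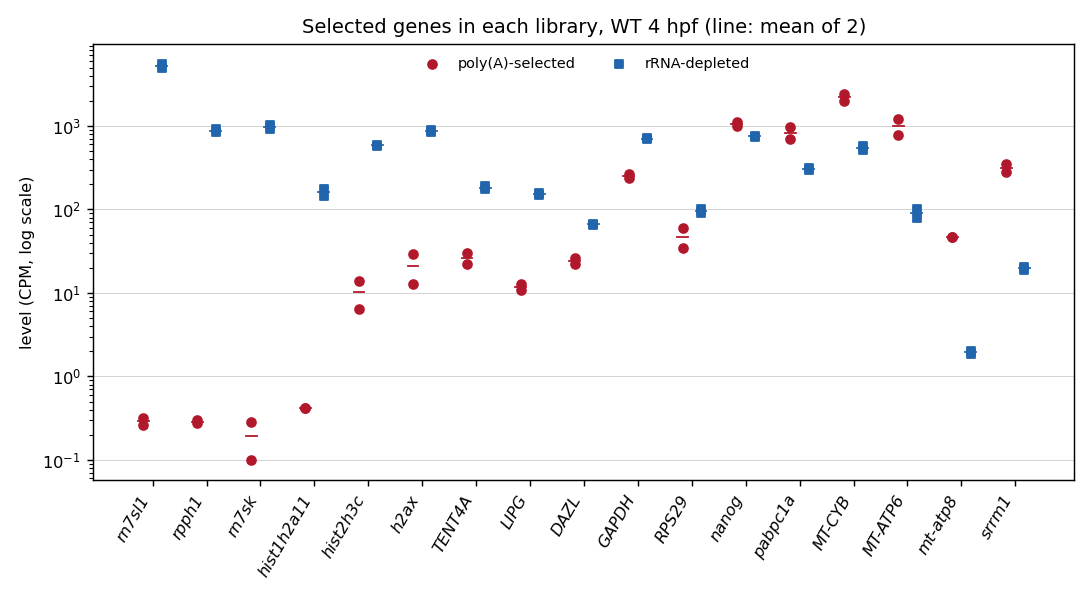
Level of 17 selected genes in each of the 4 libraries at 4 hpf (y axis, CPM, log scale); circles are poly(A) libraries, squares rRNA-depleted libraries and lines the mean of 2. The structural RNAs and stem-loop histones stand orders of magnitude lower in the poly(A) libraries, and mt-atp8, MT-ATP6 and srrm1 stand well above the rRNA-depleted ones; the 2 libraries of a group nearly coincide in most genes.

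Mitochondrial mRNAs, whose short tails are added by a polymerase of the organelle, stood high: 10 of 13 were called higher in the poly(A) libraries and none lower (median log2 fold change 1.64), and the same counts held in each alternative tried for this list. The difference was largest for the overlapping pair of ATP synthase subunits. The mRNA of mt-atp8 had 47.0 and 46.4 CPM in the poly(A) libraries, against 1.87 and 2.00 CPM in the rRNA-depleted libraries (log2 fold change 4.59 ± 0.35, SE; edgeR adjusted p = 1.10e-08). MT-ATP6 had 1217 and 774 CPM in the poly(A) libraries, against 101 and 79.1 CPM in the rRNA-depleted libraries (log2 fold change 3.47 ± 0.17, SE; edgeR adjusted p = 1.61e-12). Among the complex I subunits, MT-ND2 had 687 and 370 CPM in the poly(A) libraries, against 102 and 99.2 CPM in the rRNA-depleted libraries, and MT-ND1, MT-ND4 and mt-nd4l had log2 fold changes of 1.59, 1.57 and 1.66. Cytochrome b (MT-CYB) had 1990 and 2432 CPM in the poly(A) libraries, against 581 and 522 CPM in the rRNA-depleted libraries, and the 3 cytochrome c oxidase subunits had log2 fold changes of 1.56 (MT-CO1), 1.76 (MT-CO2) and 1.64 (MT-CO3). The libraries of the 2 groups did not overlap for any of these 10, as was so for 62.8% of all genes tested. The 3 members not called were MT-ND5, with 675 and 524 CPM in the poly(A) libraries, against 447 and 414 CPM in the rRNA-depleted libraries, MT-ND3, with 115 and 91.2 CPM against 109.5 and 115 CPM, and MT-ND6, with 251 and 188 CPM against 181 and 175 CPM. MT-ND6 lies on the other strand than its neighbours, and in human cells its mRNA is known to lack a poly(A) tail. The strand setting of the counting is not given in the sources used here. Without it reads from genes that overlap on opposite strands cannot be told apart. For the overlapping pair mt-atp8 and MT-ATP6 the values also depend on how shared reads were counted, which was not tested.

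**Figure D3:**
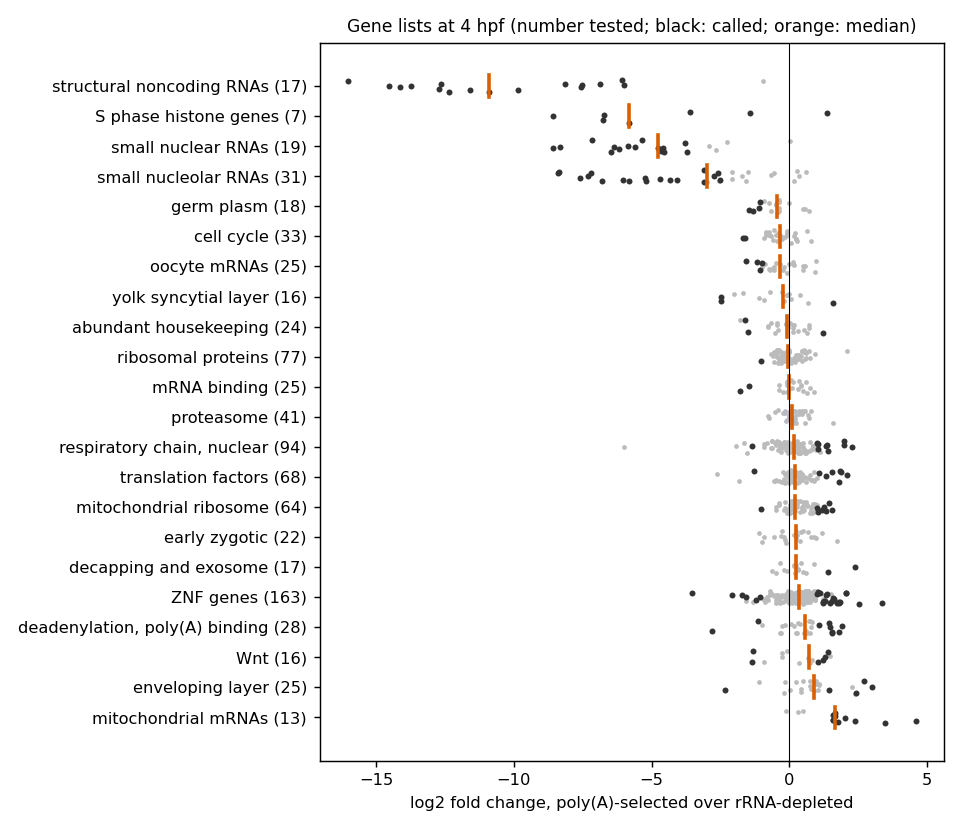
Log2 fold change at 4 hpf, poly(A) over rRNA-depleted (x axis), of every tested member of 22 gene lists (rows); black points were called, grey points were not, and the orange mark is the list's median. Structural RNAs, replication histones and small nuclear and nucleolar RNAs lie far to the left and mitochondrial mRNAs to the right. The other lists have medians from -0.45 (germ plasm) to 0.87 (enveloping layer).

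Beside mt-atp8, the 11 genes with a symbol and the largest excess in the poly(A) libraries, at an average of at least 10 CPM there, had log2 fold changes of 3.87 to 5.50. The mRNA of srrm1, a splicing coactivator, had 351 and 282 CPM in the poly(A) libraries, against 20.7 and 18.8 CPM in the rRNA-depleted libraries (log2 fold change 4.00 ± 0.14, SE; edgeR adjusted p = 2.63e-14). psip1b, a chromatin-bound coactivator, had 117 CPM in both poly(A) libraries, against 6.58 and 5.75 CPM in the rRNA-depleted libraries (log2 fold change 4.24). In both of these the lower poly(A) library lay far above the higher rRNA-depleted one. Others chosen by the same rule were rbmx2 (log2 fold change 4.22), prr13 (4.26), WIPF2 (3.88), CCDC134 (3.87), si:dkey-207j16.5 (4.76) and 1 more clone-named gene (4.49). For si:ch211-266g18.10 (log2 fold change 5.50) the poly(A) libraries differed from each other, with 16.8 and 3.88 CPM, against 0.150 and 0.317 CPM in the rRNA-depleted libraries. For si:dkey-153m14.1 (log2 fold change 4.34) the call was lost without poly(A) replicate 1 (3.77, adjusted p = 0.0680) and without either rRNA-depleted library. Of abundant maternal mRNAs chosen after their values were seen, taf15, an RNA-binding protein, had 617 and 471 CPM in the poly(A) libraries, against 49.999 and 47.1 CPM in the rRNA-depleted libraries. The same set held the nucleoporin pom121 (log2 fold change 3.44), the nucleolar protein nolc1 (3.13), the chromatin-remodelling subunit ARID2 (3.12), the RNA-binding protein rbm4.3 (3.12) and the cyclin ccnk (3.04).

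At the other end, the lowest named genes with at least 10 CPM were the structural RNAs and histones given above together with si:ch211-113a14.29, at 0.917 and 0.624 CPM in the poly(A) libraries, against 344 and 311 CPM in the rRNA-depleted libraries, and zgc:173552, at 0.561 and 0.548 CPM against 149 and 158 CPM. Further maternal mRNAs lower in the poly(A) libraries were picked after their values were seen. One that the naming rule reached through its list, TENT4A, is given below. LIPG, endothelial lipase, had 12.8 and 10.7 CPM in the poly(A) libraries, against 149 and 156 CPM in the rRNA-depleted libraries (log2 fold change -3.70 ± 0.19, SE; edgeR adjusted p = 1.92e-12). The mRNA of sybu, a kinesin linker needed in zebrafish for the transport of dorsal determinants, had 7.47 and 11.5 CPM in the poly(A) libraries, against 107 and 103 CPM in the rRNA-depleted libraries (log2 fold change -3.47). MT1X, a metallothionein, had 8.52 and 14.4 CPM in the poly(A) libraries, against 87.6 and 100.4 CPM in the rRNA-depleted libraries. Mitotic genes were among them: cenpe, a kinetochore kinesin, had 59.3 and 40.9 CPM in the poly(A) libraries, against 274 and 271 CPM in the rRNA-depleted libraries. MELK, a mitotic kinase, had a log2 fold change of -2.35, and CAMSAP1, a microtubule minus-end protein, one of -2.62. The same 6 genes were also called lower in the poly(A) libraries at 2 hpf, with log2 fold changes of -4.32 for LIPG, -2.74 for sybu, -3.27 for MT1X, -2.99 for cenpe, -3.28 for MELK and -2.37 for CAMSAP1. This count rests on picked genes, and not every maternal mRNA lower at 4 hpf followed. TENT4A had a log2 fold change of -2.79 at 4 hpf and of -0.74, not called, at 2 hpf.

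The germ plasm, oocyte and cell cycle lists lay on the rRNA-depleted side of 0 by their medians. The 12450 genes classed as maternal further down did not, with a median log2 fold change of 0.09. Germ plasm mRNAs, which mark and maintain the primordial germ cells, were called lower in the poly(A) libraries for 4 of 18 and higher for none (median log2 fold change -0.45), against a background of 9.03% called lower. DAZL, an RNA-binding protein of the germ line, had 22.4 and 26.2 CPM in the poly(A) libraries, against 67.0 and 65.9 CPM in the rRNA-depleted libraries (log2 fold change -1.45 ± 0.12, SE; edgeR adjusted p = 4.38e-09). PIWIL1, which binds piRNAs, had 22.4 and 34.4 CPM in the poly(A) libraries, against 71.6 and 72.2 CPM in the rRNA-depleted libraries (log2 fold change -1.34). DND1, which protects germ-cell mRNAs from microRNAs in zebrafish, had 21.1 and 20.7 CPM in the poly(A) libraries, against 45.5 and 44.4 CPM in the rRNA-depleted libraries (log2 fold change -1.11). In these 3 genes the groups did not overlap, as was so for 62.8% of all genes tested. The call of TDRD6 (log2 fold change -1.06) was lost without poly(A) replicate 1 (-0.66) or rRNA-depleted replicate 1 (-1.002). Not all of the list followed: DDX4, the germ-line helicase Vasa, had 175 and 186 CPM in the poly(A) libraries, against 108 and 112 CPM in the rRNA-depleted libraries, and was not called. Nor was buc, the organizer of the oocyte's Balbiani body, with 174 and 325 CPM against 317 and 325 CPM.

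Oocyte and early maternal genes gave 4 of 25 called lower (16%, against 9.03% of all genes) and none higher (median log2 fold change -0.34). In the fit of the 4 libraries alone 1 of the list was called lower, where 5.41% of all genes were. With the 2-fold change itself tested (glmTreat) 1 was called lower, where 3.69% of all genes were. ZAR1L, an oocyte RNA-binding protein, had 21.1 and 20.3 CPM in the poly(A) libraries, against 60.4 and 64.4 CPM in the rRNA-depleted libraries (log2 fold change -1.59 ± 0.13, SE; edgeR adjusted p = 4.91e-09). The calls of sox19b and cldnd were lost without poly(A) replicate 1, with log2 fold changes of -0.73 and -0.82, where all 4 libraries gave -1.07 and -1.0005; that of cldnd was also lost without rRNA-depleted replicate 2 (-0.92). The other maternal transcription factors that with sox19b open the embryo's genome were not called. nanog had 1121 and 999 CPM in the poly(A) libraries, against 763 and 739 CPM in the rRNA-depleted libraries (log2 fold change 0.50, which is -0.035 with total-count scaling). For pou5f3 the values were 857 and 574 CPM in the poly(A) libraries, against 389 and 364 CPM in the rRNA-depleted libraries (0.93). Neither gene reached the 2-fold mark, although pou5f3 was called without poly(A) replicate 2 (1.19) or rRNA-depleted replicate 1 (1.01). Cell cycle genes were called lower for 2 of 33 (6.06%, against 9.03% of all genes) and higher for none (median -0.34). The oocyte and cell cycle lists had the same median gene value (-0.34259), so these lists share a member. The spindle kinesin kif11 had 88.3 and 68.2 CPM in the poly(A) libraries, against 239 and 237 CPM in the rRNA-depleted libraries (log2 fold change -1.61), while BUB3 (-1.70) was not called in the fit of the 4 libraries alone (adjusted p = 0.0945). CCNB1, cyclin B1, had 818 and 861 CPM in the poly(A) libraries, against 1390.4 and 1448 CPM in the rRNA-depleted libraries and was not called (-0.76), except with total-count scaling (-1.29). With total-count scaling 8 of 18 germ plasm, 12 of 25 oocyte and 13 of 33 cell cycle genes were called lower, where 19.6% of all genes were.

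Genes of the machinery that makes, binds and removes tails were called in both directions. Of 28 genes for deadenylation and poly(A) binding, 7 (25%) were called higher in the poly(A) libraries and 2 (7.14%) lower (median log2 fold change 0.57). Over all genes the shares were 8.7% and 9.03%. With total-count scaling 3 were called each way, where 4.08% of all genes were called higher and 19.6% lower. TENT4A, a non-canonical poly(A) polymerase that adds mixed tails, had the largest deficit of the list, with 22.3 and 29.9 CPM in the poly(A) libraries, against 188 and 173 CPM in the rRNA-depleted libraries (log2 fold change -2.79 ± 0.15, SE; edgeR adjusted p = 2.61e-12). Its relative TENT4B stood on the other side, with 171 CPM in both poly(A) libraries, against 84.4 and 78.3 CPM in the rRNA-depleted libraries (log2 fold change 1.07, and 0.54, no longer called, with total-count scaling). The scaffold of the CCR4-NOT deadenylase, CNOT1, had 246 and 241 CPM in the poly(A) libraries, against 93.3 and 83.1 CPM in the rRNA-depleted libraries (log2 fold change 1.46 ± 0.10, SE; edgeR adjusted p = 1.28e-10). With total-count scaling the CNOT1 value was 0.93 and no longer called. cnot3b (1.55) and the deadenylase CNOT6L (1.80) also stood higher. The deadenylase CNOT7, with 4.68 and 11.4 CPM in the poly(A) libraries, against 16.98 and 18.3 CPM in the rRNA-depleted libraries, stood lower (-1.12, and -0.68 without poly(A) replicate 1). pabpc1a, the cytoplasmic poly(A)-binding protein targeted by a morpholino elsewhere in the series, had 962 and 700 CPM in the poly(A) libraries, against 314 and 297 CPM in the rRNA-depleted libraries (log2 fold change 1.44, and 0.91 with total-count scaling). The antiproliferative adaptor BTG1 had a log2 fold change of 1.53, which was 0.89 without poly(A) replicate 1. Its maternal relative BTG4, with 47.6 and 115 CPM in the poly(A) libraries, against 155 and 166 CPM in the rRNA-depleted libraries, was not called (-0.98). BTG4 was called lower without poly(A) replicate 2 (-1.75), with DESeq2 (-1.07), with median-of-ratios scaling (-1.06) and with total-count scaling (-1.501). YBX1, the other morpholino target of the series and a binder of maternal mRNA, had 848 and 502 CPM in the poly(A) libraries, against 441 and 433 CPM in the rRNA-depleted libraries, which is under the 2-fold mark (log2 fold change 0.63). In the list of m6A readers and other mRNA-binding proteins 2 of 25 were called lower and none higher. The clearest was the helicase DDX6, a partner of decapping and of translational repression, with 11.8 and 21.6 CPM in the poly(A) libraries, against 59.8 and 56.0 CPM in the rRNA-depleted libraries (log2 fold change -1.79). In the exosome and decay list 2 of 17 were called higher and none lower (1 and 2 with total-count scaling). EXOSC1 had 9.63 and 7.503 CPM in the poly(A) libraries, against 1.91 and 1.37 CPM in the rRNA-depleted libraries. The second, DCP1B, was not called without poly(A) replicate 2 (log2 fold change 1.41, and 0.54 without it).

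Genes of the translation and energy machinery were close to the typical mRNA in capture by median. Of 77 ribosomal proteins 1 was called (median log2 fold change -0.07). This gene, RPS29, had 59.2 and 34.6 CPM in the poly(A) libraries, against 90.8 and 102 CPM in the rRNA-depleted libraries, and its log2 fold change of -1.04 shrank to -0.70 without poly(A) replicate 2 and to -0.93 without rRNA-depleted replicate 2. No proteasome subunit of 41 was called in either direction (median 0.10). Nuclear genes of oxidative phosphorylation gave 9 of 94 higher and 1 lower (median 0.16). Among the higher, cox6a1 had 28.02 and 22.8 CPM in the poly(A) libraries, against 7.01 and 5.92 CPM in the rRNA-depleted libraries. The lower one was ATP5F1B, the catalytic subunit of ATP synthase, with 198.5 and 209 CPM against 528 and 530.3 CPM (log2 fold change -1.38). Mitochondrial ribosomal proteins gave 7 of 64 higher and 1 lower (median 0.21). Translation factors gave 7 of 68 higher and 1 lower (median 0.19), among them the start codon factor EIF1, with 253 and 171 CPM in the poly(A) libraries, against 59.7 and 55.2 CPM in the rRNA-depleted libraries (log2 fold change 1.88 ± 0.12, SE; edgeR adjusted p = 6.77e-11). The subunit-joining factor eif5b had a log2 fold change of 1.82, 2 EIF4G3 genes 2.096 and 1.82, and eif5a 1.53. Zinc-finger genes gave 21 of 163 higher and 6 lower (median 0.36). Among them, znf865 had 216 and 211 CPM in the poly(A) libraries, against 64.4 and 54.1 CPM in the rRNA-depleted libraries. These directions depended on the scaling. With total-count scaling, where 4.08% of all genes were called higher and 19.6% lower, oxidative phosphorylation gave 2 higher and 8 lower, mitochondrial ribosomal proteins 1 and 3, translation factors 4 and 5, zinc-finger genes 9 and 17, and ribosomal proteins 0 and 7. Among genes often used as references, GAPDH, a glycolytic enzyme, had 263 and 237 CPM in the poly(A) libraries, against 689 and 720.4 CPM in the rRNA-depleted libraries (log2 fold change -1.49 ± 0.10, SE; edgeR adjusted p = 6.83e-11). The actin gene actb2 went the other way, with 1561 and 1128 CPM against 611 and 547 CPM (log2 fold change 1.22, and 0.90 without poly(A) replicate 1), while actb1 was not called (-0.79), except without poly(A) replicate 1 (-1.42) or with total-count scaling (-1.33). Of 123 tested genes that RefSeq (GRCz12tu) types as lncRNA, matched by symbol after the data were seen, 8 were called higher and 4 lower (median 0.22), close to the 12285 typed as protein coding, with 1064 higher and 814 lower (median 0.03).

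The lists of the enveloping layer, the yolk syncytial layer, BMP and ventral genes and first zygotic genes differed more between the 2 poly(A) libraries than between library kinds, by their medians. Genes of the enveloping layer, the outer epithelium that forms first, were on median 1.99 log2 units higher in poly(A) replicate 1 than in replicate 2, with 17 of 20 genes at or above 1 CPM differing at least 2-fold, while the rRNA-depleted replicates differed by a median of 0.05. Keratin krt4 shows the pattern: it had 379 and 76.1 CPM in the poly(A) libraries, against 116 CPM in both rRNA-depleted libraries, so the poly(A) libraries lay on either side of the rRNA-depleted ones. The tight junction gene cldne, with 194 and 46.1 CPM against 56.5 and 58.6 CPM, and krt18a.1, with 424 and 101 CPM against 203 and 194 CPM, did the same. The same gap was seen in the yolk syncytial layer list (median 1.26, 6 of 10 genes), the BMP and ventral list (1.22, 7 of 12) and the first zygotic genes (0.84, 9 of 22). Among 595 genes classed as embryonic 246 were at least 2-fold higher in replicate 1 and 12 in replicate 2. Ribosomal proteins shifted with them by a median of 0.57, with 74 of 75 higher in replicate 1, whereas oocyte and germ plasm genes shifted the other way by -0.29 and -0.21. The part of these differences in the calls of other genes was not tested beyond leaving out each library in turn.

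**Figure D4:**
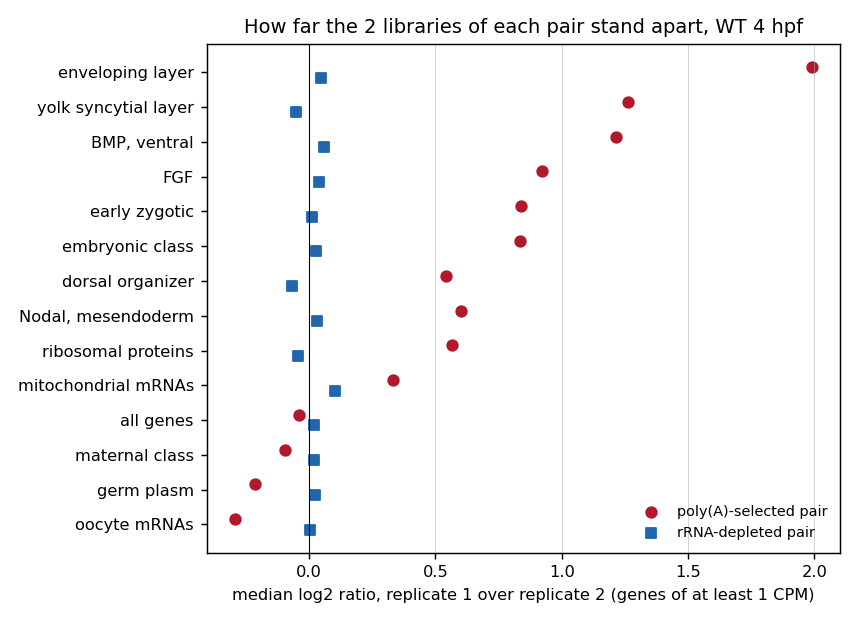
Median log2 ratio of replicate 1 over replicate 2 for selected gene lists and classes (rows, genes at or above 1 CPM), in the poly(A) pair and in the rRNA-depleted pair at 4 hpf. In the poly(A) pair the enveloping layer, yolk syncytial, BMP, FGF, Nodal, dorsal organizer and first zygotic lists lie at 0.54 to 1.99, and in the rRNA-depleted pair within 0.1 of 0. The Wnt list, which is not drawn, had a median of 0.12 in the poly(A) pair and 0.11 in the rRNA-depleted pair.

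Calls in these lists depended on the library. Over all genes 8.7% were called higher and 9.03% lower, and with total-count scaling 4.08% and 19.6%. In the enveloping layer list 4 of 25 were called higher and 1 lower (median log2 fold change 0.87). Without poly(A) replicate 1 the counts were 2 higher and 5 lower (median minus that of all genes -0.55), and without replicate 2 they were 12 and 1 (1.52). The calls held in each of these for GATA3, a transcription factor of the early ectoderm, with 122 and 58.9 CPM in the poly(A) libraries, against 10.96 and 11.5 CPM in the rRNA-depleted libraries (log2 fold change 3.00 ± 0.65, SE; edgeR adjusted p = 0.00296), and for KLF3, with 9.92 and 6.22 CPM against 1.81 and 1.17 CPM (2.43). TFAP2A (1.44) and cyt1l (2.72) lost their calls without poly(A) replicate 1, at 0.66 and 0.17, and also without either rRNA-depleted library. None of the 22 first zygotic genes was called (median 0.23). In the BMP and ventral list 3 of 14 were called higher and none lower. SMAD5, a BMP signal transducer, stood at 232 and 249.98 CPM in the poly(A) libraries, against 101 and 98.0 CPM in the rRNA-depleted libraries (log2 fold change 1.27). The ligand bmp7a was not called, but was called lower without poly(A) replicate 1 (-1.05) and higher without poly(A) replicate 2 (1.62). With total-count scaling the BMP and ventral list gave 0 higher and 1 lower. In the Nodal and mesendoderm list 2 of 16 were called higher and 1 lower. The transducer SMAD2 stood at 88.6 and 118 CPM in the poly(A) libraries, against 46.7 and 39.5 CPM in the rRNA-depleted libraries. The ligand ndr1 stood at 9.69 and 7.13 CPM in the poly(A) libraries, against 16.5 and 17.5 CPM in the rRNA-depleted libraries, a call lost without poly(A) replicate 2 (-1.02, and -0.81 without it) or rRNA-depleted replicate 2 (-0.95). Wnt genes gave 4 of 16 higher and 2 lower (median 0.70), and 0 and 3 with total-count scaling. In the same scaling the Nodal list gave 0 higher and 3 lower. The co-receptors ROR2 and LRP5 had log2 fold changes of 1.30 and 1.21, and the ligand WNT8A one of -1.34, with 18.4 and 16.4 CPM in the poly(A) libraries, against 43.3 and 44.5 CPM in the rRNA-depleted libraries. In the FGF list 1 of 11, ETV4, was called higher (1.74, and 0.47 without poly(A) replicate 1), and in the yolk syncytial list 1 of 16 was higher and 2 lower. Of 10 markers of blood, muscle, neural tissue, pancreas and lens, which a 4 hpf embryo has not yet formed, none was called higher and 2 lower.

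Genes were also classed by libraries outside the comparison at 4 hpf. Maternal genes averaged at least 1 CPM both in poly(A) libraries at 0 hpf and in the rRNA-depleted amanitin libraries at 2 hpf, and embryonic genes averaged under 0.1 CPM in both. Of 12450 maternal genes 1321 were called higher in the poly(A) libraries and 704 lower (median log2 fold change 0.09), and of 4514 embryonic genes 112 were higher and 645 lower (median -0.51). Much of the embryonic deficit lay in genes of low level. Among the 679 embryonic genes averaging at least 1 CPM over the 2 groups, 37 were higher and 109 lower (median -0.14), against 1583 higher and 1183 lower of all 14871 genes at that level (median 0.08). The embryonic median relative to all genes was -1.05 without poly(A) replicate 1 and -0.27 without poly(A) replicate 2. A further split used poly(A) libraries alone, at 2 against 0 hpf, when little new RNA is made and tails are lengthened on many maternal mRNAs. There 4328 genes (18.5%) were called, 2559 (10.9%) higher and 1769 (7.55%) lower at 2 hpf. At 4 hpf, the genes that had been higher at 2 than at 0 hpf were called higher in the poly(A) libraries for 331 and lower for 161 (median 0.12). Those that had been lower at 2 hpf were higher for 161 and lower for 207 (median -0.06). Within the maternal class the set that rose gave 229 higher (13.8%) and 77 lower (4.65%) of 1657. The set that fell gave 129 higher (8.37%) and 178 lower (11.6%) of 1541. Maternal genes called in neither direction gave 963 higher (10.4%) and 449 lower (4.85%) of 9252. The median log2 fold change was 0.13 in the set that rose and 0.11 in these uncalled genes, so the 2 lay close together.

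The same 2 kinds of library were set against each other at 2 hpf, where the rRNA-depleted embryos had received amanitin. This comparison shares no library with that at 4 hpf, and called 2428 genes (10.4%) higher and 2480 (10.6%) lower in the poly(A) libraries, 20.9% in all. Of the genes higher at 4 hpf, 1119 (54.9%) were also called higher at 2 hpf, where they made up 46.1% of those called, and 53 were called lower. Of the genes lower at 4 hpf, 872 (41.2%) were also lower at 2 hpf, 35.2% of those called there, and 79 were higher. Of the classes at the low end at 4 hpf, structural RNAs had 15 of 17 called lower at 2 hpf (median log2 fold change -10.65), replication histones 6 of 7 (-7.999), and small nucleolar RNAs 10 of 31. Of 19 spliceosomal RNAs 1 was called lower there, of 10 microRNA loci none, and of 25 rRNA entries none was lower and 1 higher. The median was 0 for each class, but counts were few. In the rRNA-depleted libraries the small nuclear RNA list summed to 74 and 68 counts at 2 hpf, against 994 and 813 at 4 hpf. The microRNA list gave 29 and 22 against 373 and 319, and the rRNA list 480 and 538 against 77589 and 60283. In the poly(A) libraries at 2 hpf the rRNA list held 6577 and 2771 counts, more than in the rRNA-depleted ones, so it showed no deficit there. For the small nuclear RNA and microRNA lists, a deficit could hardly be called from so few counts. The 5 replication histones other than H2BK1 and hist2h2l, and 16 of the 17 structural RNAs, were lower in every one of the 20 poly(A) libraries of the series than in any of the 8 rRNA-depleted ones, as was true of 570 of all 23444 genes. The remaining 474 genes of the 1044 that did not overlap (4.45%) lay the other way. Of 31 small nucleolar RNAs 5 were lower in all 20 poly(A) libraries, and of 19 small nuclear RNAs, 10 microRNA loci and 25 rRNA entries none. Mitochondrial mRNAs had 12 of 13 called higher at 2 hpf (median 2.35), and 9 of them lay above all 8 rRNA-depleted libraries in all 20 poly(A) libraries. By library kind, rn7sl1 ranged over 0.0152 to 46.1 CPM in the 20 poly(A) libraries, against 2686 to 19356 CPM in the 8 rRNA-depleted ones, and srrm1 over 192 to 851 CPM against 10.8 to 45.0 CPM.

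The effect of poly(A) selection differed between the stages for 2070 genes (8.83%), as tested by the interaction of library kind and stage in edgeR's quasi-likelihood test; for 1255 (5.35%) it was higher at 4 hpf and for 815 (3.48%) lower. This balance turned without poly(A) replicate 1 (1173 higher, 1312 lower) and with glmTreat (219 higher, 245 lower). Nuclear genes of oxidative phosphorylation contributed 35 of 94, all with a higher poly(A) effect at 4 hpf: at 2 hpf 30 of the 94 were called lower in the poly(A) libraries (median log2 fold change -0.37), against 1 at 4 hpf. Mitochondrial ribosomal proteins contributed 15 of 64, all in the same direction. Ribosomal proteins contributed 5 of 77 in that direction and none in the other, which is near the 5.35% and 3.48% of all genes. cox6a1 had a log2 fold change of 1.97 at 4 hpf and 0.16 at 2 hpf, and ndufv3, a complex I subunit, 1.98 at 4 hpf and -0.95 at 2 hpf. TENT4A moved the other way, with a log2 fold change of -2.79 at 4 hpf and -0.74 at 2 hpf (difference -2.05, edgeR adjusted p = 5.54e-07). The histone variant h2ax was in deficit at both stages, with log2 fold changes of -5.37 at 4 hpf and -7.34 at 2 hpf (difference 1.97, edgeR adjusted p = 0.00107). Of the embryonic class 15 genes had a higher and 111 a lower poly(A) effect at 4 hpf, and of the maternal class 888 and 299. The rRNA-depleted amanitin libraries at 2 hpf helped to define both classes and also enter this difference. These class counts are thus partly set by the definition, and no reading of the classes is drawn from them. The treatment with amanitin, which differs between the rRNA-depleted groups, cannot be told apart from the stage by these differences alone. The rRNA-depleted amanitin libraries at 4 hpf were not part of this contrast. In them the rRNA list took 0.00105% of counts, against 0.000826% with amanitin at 2 hpf and 0.149% in wild type at 4 hpf. The parts of stage and treatment were not tested.

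**Figure D5:**
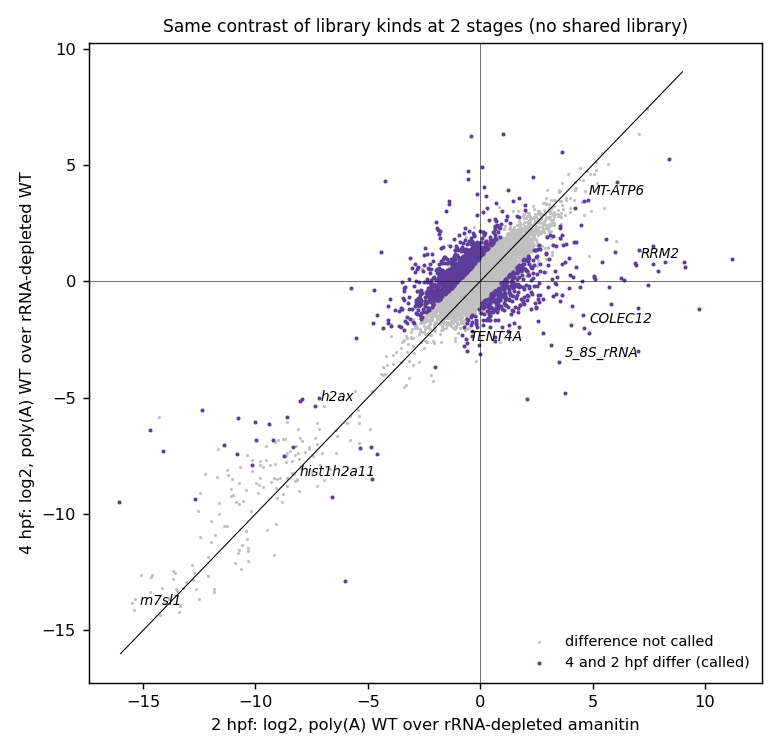
Log2 fold change, poly(A) over rRNA-depleted, at 4 hpf (y axis) and at 2 hpf, where the rRNA-depleted embryos had received amanitin (x axis). Drawn are tested genes with more than 3 counts over each pair at 4 hpf and group means summing to at least 2 CPM at each stage. Purple points are those drawn of the 2070 genes whose difference between the stages was called. Points on the diagonal have the same log2 fold change at both stages. The structural RNAs and histones lie at the lower left, and COLEC12 and 5_8S_rRNA lie below 0 at 4 hpf and above 0 at 2 hpf.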

How the data were processed

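Whole zebrafish embryos were profiled by RNA-seq with paired reads of 125 bp. The authors deposited raw counts of reads per Ensembl gene; TopHat2 2.1.1 and HTSeq 0.6.0 are named per the submitters' processing notes. The genome build, the annotation and the strand setting of the counting were each not given in the sources used here. The labels state an oligo(dT) bead step in text shared by all samples and rRNA removal for the depleted ones, and an ERCC spike-in that was not used here. Summary lines that name no gene were left out of library sizes. In the rRNA-depleted WT 4 hpf libraries reads outside genes made up 17.9% and 17.2% of reads in genes, outside genes or ambiguous. The poly(A) WT 4 hpf files held no such lines, so this share cannot be compared.

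Symbols came from a table pairing gene IDs with names, which matched 21939 of 33737 genes; they are printed as that table spells them, many in the human style. RefSeq types (GRCz12tu) were matched by symbol.

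Groups were taken from the sample titles. All 28 libraries entered 1 fit with 14 groups and 14 residual degrees of freedom (R 4.3.3, edgeR 4.0.16, limma 3.58.1): filterByExpr kept 23444 genes, TMM scaled the libraries, and a robust quasi-likelihood fit was tested by contrast, with Benjamini-Hochberg adjustment over all genes. A call needs an adjusted p under 0.05 and a 2-fold change. CPM values were computed here from the deposited counts with TMM library sizes, and ± after a fold change is its SE. Counts set the precision: a count of 0 in a pair allows up to 3 counts over it, counting error only. Lists are described by counts and medians, without a set test.

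Named genes were the 12 highest and 12 lowest called genes with a symbol, not overlapping and with at least 10 CPM in the higher group, up to 4 called members per list by adjusted p with at least 1 CPM in the higher group, ybx1, pabpc1a, nanog, pou5f3 and sox19b, the 5 genes with the largest share of counts in each library kind, and 3 each way at 2 hpf and for the difference between stages. Further genes were chosen after their values were seen: the 6 maternal genes named each way, the counts by RefSeq type, the uncalled members given for contrast, and called list members beyond the first 4. Members and lists were chosen with earlier results of these data known. The neuronal nitric oxide synthase gene, which had entered the germ plasm list through an old synonym, was removed from it after its value was seen. The edgeR fit was tested on simulated data; DESeq2 1.42.0, other scalings, filters, fold rules, fewer libraries and a replicate block were tried as alternatives. One gene that the naming rule reached is not reported here.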

Additional observations from a re-analysis of the deposited data

Results flagged for a closer look

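For 27 of the named genes the effect of poly(A) selection, as log2 of poly(A) over rRNA-depleted, differed between 4 hpf and 2 hpf by the interaction test (edgeR, adjusted p under 0.05 and at least 2-fold), and each is given here as the effect at 4 hpf minus that at 2 hpf. The rRNA-depleted embryos at 2 hpf had received amanitin and those at 4 hpf had not, so stage and treatment cannot be told apart by this difference alone.

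Several had effects of opposite sign at the 2 stages, among them COLEC12, KCNK5, bbc3 and 5_8S_rRNA, and also ndufv3, given above, and TFAP2A. COLEC12, a scavenger receptor, had 1.97 and 4.10 CPM in the poly(A) libraries at 4 hpf, against 12.7 and 12.05 CPM in the rRNA-depleted libraries, a log2 fold change of -2.02, while at 2 hpf it was 4.62 (difference -6.64). KCNK5, a potassium channel, had 0.410 and 8.63 CPM in the poly(A) libraries at 4 hpf, against 0.276 and 0.167 CPM in the rRNA-depleted libraries, so its high value rests on poly(A) replicate 2 (difference 8.54; the 4 hpf value was 0.85 without that replicate). For bbc3, a pro-apoptotic gene, the difference was 5.65, with log2 fold changes of 1.24 at 4 hpf and -4.41 at 2 hpf. RRM2, a subunit of ribonucleotide reductase, had 469.7 and 18.3 CPM in the poly(A) libraries at 4 hpf, against 148 and 138 CPM in the rRNA-depleted libraries; its difference was -6.14, with a log2 fold change of 6.91 at 2 hpf and 0.77, not called, at 4 hpf. The 5_8S_rRNA entry had 88.4 and 89.4 CPM in the poly(A) libraries at 4 hpf, against 966 and 999 CPM in the rRNA-depleted libraries, a log2 fold change of -3.47, and 3.53 at 2 hpf (difference -6.99); over the 20 poly(A) libraries it ranged from 41.5 to 9770.3 CPM.

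Small RNAs counted at low levels were also among them, with differences of 6.80 for SNORA73 and of -5.76 and -4.43 for a pair of U1 copies, all of which belong to families of near-identical copies. Among histone genes, h2ax and h2ax2 had differences of 1.97 and 2.26, with deficits in the poly(A) libraries at both stages. Genes with a poly(A) effect higher at 4 hpf were further si:dkey-207j16.5 (5.29), TFAP2A (3.89), ndufv3 (2.92), foxo3b (2.19), a clone-named gene (2.16), frzb (2.01), cox6a1 (1.81) and kif11 (1.02). Those with a lower one were selenop (-4.45), zgc:92242 (-4.02), TENT4A (-2.05), KLF3 (-2.03), prr13 (-1.84), sox19b (-1.14), MT-ATP6 (-1.13), tuba1b (-1.04) and TP63 (-1.03).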

How the results depend on the processing

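The count of genes called at 4 hpf (4156, of which 2039 higher and 2117 lower in the poly(A) libraries) was 1723 when the 2-fold change was tested itself by glmTreat (858 and 865), 7912 with no fold threshold (4312 and 3600), and 2322 in a fit of the 4 libraries alone (1194 and 1128), of which 2264 were among the 4156. With total-count scaling 957 were higher and 4596 lower, 17.2% higher of those called against 49.1% with TMM, and with a filter at 1 CPM 1410 were lower. Leaving out 1 library gave 3163 to 5141 genes. Other settings stayed closer: DESeq2 called 3907, median-of-ratios scaling 4160 and no filter on low counts 3959. At 2 hpf glmTreat gave 2487 and no fold threshold 8819 genes (4908 reported), and for the difference between stages 464 and 3341 (2070 reported); without poly(A) replicate 1 at 4 hpf that difference gave 1173 genes higher and 1312 lower, in place of 1255 and 815, and glmTreat gave 219 and 245.

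The embryonic median relative to all genes, -0.51, was -0.30 with a filter at 1 CPM, -0.22 over genes averaging at least 1 CPM, -0.65 in the fit of the 4 libraries, and -1.05 to -0.27 on leaving out 1 library. The median of genes higher at 2 than at 0 hpf, relative to all genes, was 0.113, and 0.079 to 0.22 on leaving out 1 library. Signs turned with total-count scaling for nanog (-0.035), MT-ND5 (-0.056), MT-ND6 (-0.233) and krt18a.1 (-0.141). On leaving out 1 library they turned, with values of -3.03 to 1.72 for RRM2, -1.05 to 1.62 for bmp7a, -1.028 to 1.098 for krt18a.1, -0.67 to 1.72 for krt4, -0.38 to 1.76 for cldne and -0.362 to 0.037 for MT-ND3. None of these was called in the fit reported. Of 2362 recomputed values of 158 named genes 2189 kept direction and call, 139 lost the call, 24 gained it and 10 turned, and 92 genes changed under no setting tried. The cause was not tested.

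Replicate numbers shared by the groups did not pair the libraries: deviations of same-numbered libraries correlated at -0.00301 over 15540 genes at 4 hpf and -0.0392 over 14334 genes at 2 hpf. A replicate block gave 4088 called genes at 4 hpf, 4861 at 2 hpf and 2017 for the difference, and changed no call of a named gene.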
